A study of Homo sapiens
Mus musculus and Homo sapiens with 2 samples.

Results

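The genes of glucose uptake, glycolysis, lactate handling and the pentose phosphate pathway were followed in whole and newly made RNA, as 30 genes chosen by symbol from the gene annotation. All 30 were found among the 43167 annotated genes of the A549 sample. They comprised 3 glucose transporters, 9 enzymes of the preparatory phase of glycolysis, 6 of the payoff phase, 4 genes of lactate handling, 3 enzymes of the PFKFB family and 5 pentose phosphate enzymes. The rule went by symbol, and the set was chosen with earlier results of these data known.

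The measurements came from sci-fate, a single-cell RNA assay in which cells take up the uridine analogue 4-thiouridine (S4U) and iodoacetamide then alters the incorporated bases so that RNA made during labelling can be recognised. A549, a line of human lung adenocarcinoma, received dexamethasone, a synthetic glucocorticoid, for 2, 4, 6, 8 or 10 h (100 nM in the protocol and 101 nM in a further label), against a 0 h culture that received the ethanol vehicle, and every A549 culture had 200 µM S4U for its last 2 h. HEK293T, derived from human embryonic kidney, and NIH/3T3, a mouse fibroblast line, were profiled as a mixture after 6 h in 200 µM S4U, with side groups lacking S4U, iodoacetamide or both. Dexamethasone also stands in the label of the mixture, although by the protocol A549 alone received it, and A549 grew in DMEM/F12 while HEK293T and NIH/3T3 grew in high glucose DMEM, so line, medium and labelling time cannot be told apart. The labels show 1 culture for each time, so the 5 treated cultures supplied the spread for every test.

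Glucose enters cells through facilitative transporters of the SLC2A (GLUT) family, is trapped by hexokinase and is split to pyruvate by glycolysis, and lactate dehydrogenase and the monocarboxylate transporters turn pyruvate into exported lactate. The PFKFB enzymes set the level of fructose 2,6-bisphosphate, the activator of phosphofructokinase, while the pentose phosphate pathway draws on glucose 6-phosphate to make NADPH and ribose. Tumour lines commonly run glycolysis at a high rate in the presence of oxygen, and glucocorticoids are known to curb glucose use in several peripheral tissues.

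The 6 A549 cultures held 1045 to 1446 cells each, with 28870594 to 43084614 whole counts and 5865326 to 9718958 new counts per culture. New counts made up 20.3 to 22.6% of the total in every A549 culture, and 54.5% of the 6725232 whole counts of the 913 labelled HEK293T cells. Of 8 marker genes of A549, KRT8 reached 3820 CPM (counts scaled to a common library total) in A549 against 4.34 CPM in HEK293T, while EPCAM was low in A549 at 4.78 CPM. KRT8, KRT18 and KRT7 rose and AKR1B10 and NQO1 fell in new RNA with dexamethasone, and none of the 5 tested markers of HEK293T passed the test. Of 7 known glucocorticoid-induced genes, 6 rose in new RNA, among them FKBP5 (log2 fold change 3.93) and PER1 (3.39), the direction that the treatment labels imply. In summed counts, fewer cells that express a gene and less RNA per cell cannot be told apart.

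The transporter genes SLC2A3 (GLUT3) and SLC2A14 (GLUT14) need care, because they are close copies on chromosome 12. Their aligned coding sequences agreed at 96.8% of 1488 bases in the GENCODE 29 transcripts (GRCh38), with 48 mismatches, whereas the deposited files use hg19. The aligned part of the 3′ untranslated regions agreed at 97.5% of 243 bases. Of all 50-base windows of the SLC2A14 transcript, 24.2% occurred unchanged in an SLC2A3 transcript, so reads from some stretches could be assigned to either gene. The last 120 coding bases before the stop codon show how little separates the pair, with the 2 differing bases in capitals:

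SLC2A3: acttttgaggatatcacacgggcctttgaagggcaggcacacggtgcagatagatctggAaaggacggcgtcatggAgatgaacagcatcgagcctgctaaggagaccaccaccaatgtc

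SLC2A14: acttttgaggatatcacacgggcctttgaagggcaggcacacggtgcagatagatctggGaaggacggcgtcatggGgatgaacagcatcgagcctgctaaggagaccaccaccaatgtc

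The sources used here do not say how reads matching both genes were assigned. Pseudogenes named after a member held few of the whole counts beside it. The 43 named GAPDH pseudogenes together held 0.0952% as many counts as GAPDH, the 8 of PGAM1 held 6.55% as many as PGAM1, and the 3 of SLC2A3 held 8.96% as many as SLC2A3. A gene on the other strand overlapped 17 of the 30 members, and the sources used here leave unstated whether counting used the strand.

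The labelling window first gave the share of each gene's counts that was new. Among the 28 members with at least 1000 whole counts in A549 the median new share after 2 h was 9.39%. Over the 10687 protein-coding genes with at least 1000 whole counts it was 25.6%. Genes were not matched for abundance above this floor, which was used in both lines, and GAPDH reached 1088617 whole counts in A549. Of these members 23 lay below the gene median, and 10 lay below the 10th percentile of 7.33%, the level that bounds the lowest 10% of genes. In HEK293T, after 6 h, the median was 15.8% over 11 members, against 55.2% over 1524 protein-coding genes, and 7 of the 11 lay below the 10th percentile of 17.4%. Those 11 hold no glucose transporter and no PFKFB enzyme, which the 28 in A549 include, so the member medians of the lines cover different sets. HEK293T cells with iodoacetamide but no S4U had new shares of 0.539% (GAPDH) to 1.21% (PGK1) for those 11 members, which is the background of the call. No unlabelled A549 cells were analysed here.

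The lowest shares were those of catalytic enzymes, although others of these, such as HK1 (18.4%) and RPIA (48.2%), lay above the member median in A549. ALDOA, the aldolase that splits fructose 1,6-bisphosphate, was lowest in A549 at 3.40% (exact 95% interval 3.33 to 3.48%, counting error only). TPI1, which interconverts the aldolase products, had 3.76% in A549 and 11.2% (10.3 to 12.1%) in HEK293T, where ALDOA had the same 11.2% and these were the lowest of the 11 members with at least 1000 counts. GAPDH had 3.75% in A549 and 11.5% in HEK293T, and ENO1, the main enolase, had 4.54% and 14.3% in the same order of lines. PKM (pyruvate kinase), PFKL (the liver-type phosphofructokinase), TKT (transketolase), PGK1, TALDO1 (transaldolase) and LDHA completed the 10 below the A549 10th percentile, between 4.87% and 7.21%.

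Some of the regulatory genes and glucose transporters stood at the other end. PFKFB3, the family member with the strongest kinase over bisphosphatase activity, had the highest share of the members in A549 at 73.0% (72.5 to 73.6%), and 79.0% (74.2 to 83.2%) on 333 counts in HEK293T. PFKFB4 had 60.0% in A549 and 78.1% on 96 counts in HEK293T, whereas PFKFB2 had 16.8% in A549. SLC2A3 and SLC2A14 had 61.2% and 60.9% in A549, against 21.3% for SLC2A1 (GLUT1), the basal transporter of most cells. The SLC2A14 share pooled the cultures, of which that at 0 h had 21.4%. Its background is not known at this depth, because unlabelled HEK293T cells held 1 new count of 3 with iodoacetamide alone and 3 of 5 with neither reagent, against 0 of 16 and 0 of 8 for SLC2A3. Among members with at least 1000 counts in HEK293T, SLC16A1, the monocarboxylate transporter MCT1, had the highest share at 58.0% (56.1 to 59.9%). SLC2A1 at 81.7% and HK2, the inducible hexokinase, at 86.7% were higher there but rested on 175 and 264 counts.

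RPIA, the isomerase that makes the ribose phosphate of the pentose phosphate pathway, had 48.2% after 2 h in A549 and 46.6% (39.6 to 53.7%) on 206 counts after 6 h in HEK293T. Over the 23 members with at least 100 HEK293T counts the 2 sets of shares had a Spearman rho of 0.912, a description over genes of the same libraries. In A549 the shares of the 28 deeper members had a rho of 0.500 with the genomic span of the gene, 0.473 with the U content of its transcript and 0.307 with transcript length. In NIH/3T3 the mouse genes with at least 1000 counts had 13.2% (Pkm), 16.8% (Aldoa), 18.7% (Ldha) and 21.1% (Tpi1), all below the 33.0% of counts that were new in that line. That value is a share of all counts and not a gene median. Mouse genes with fewer counts lay on both sides of it. Of those with at least 100 counts, Slc16a1 (63.6% on 478 counts), Slc2a1 (54.5% on 222), Hk2 (55.5% on 119), Hk1 (36.6% on 123) and Pfkp (34.0% on 100) were above. Pgd (30.8% on 480), Taldo1 (18.1% on 718), Tkt (17.3% on 387) and Pgk1 (25.5% on 365) were below. So were Eno1 (22.3% on 283), Pfkl (22.8% on 254), Gapdh (14.8% on 196), Pgam1 (22.1% on 122) and Pgls (25.7% on 105).

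**Figure D1:**
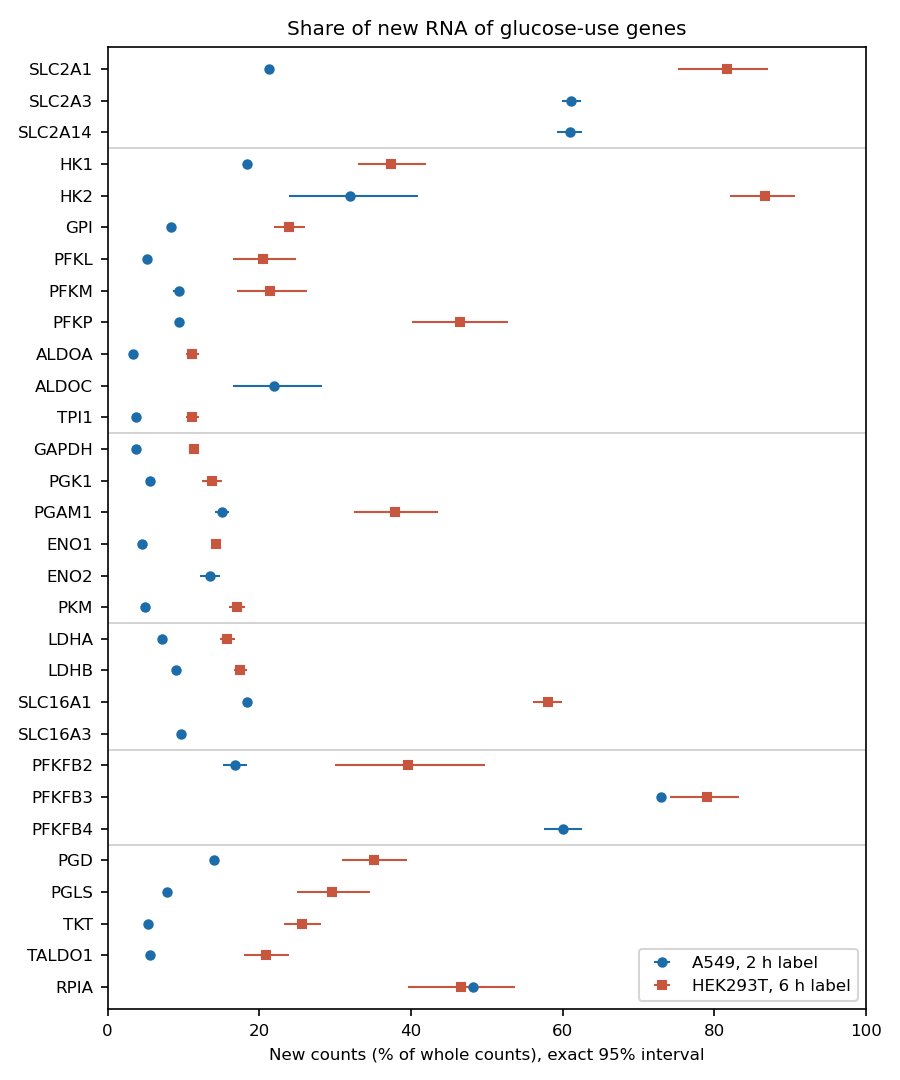
New share (% of counts called new) of the members in A549 after 2 h of S4U and in labelled HEK293T after 6 h, with exact 95% intervals that cover counting error only. ALDOA at 3.40% and PFKFB3 at 73.0% bound the A549 values, and most glycolytic enzymes lie under the A549 gene median of 25.6%.

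Dexamethasone was then tested by setting the 5 treated cultures against the 0 h culture with edgeR's quasi-likelihood test on summed counts, with Benjamini-Hochberg adjustment over all genes tested. All 30 members passed the low-count filter in the 3 comparisons with 0 h. In new RNA 4 members rose and 2 fell, while 3.82% of all 17507 genes tested rose and 2.18% fell. In whole RNA no member rose and 1 fell, beside 0.603% and 0.275% of all 22894 genes, and 8 members and 2923 of all genes had an unadjusted p under 0.05. In pre-existing RNA (whole minus new counts) no member passed, beside 0.0533% higher and 0.0630% lower of 20624 genes, with 3 members and 1649 of all genes at an unadjusted p under 0.05. The DESeq2 Wald test called 2 members lower there (ENO2 and PFKFB3), beside 0.228% of all genes.

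Without the 2 h culture 7 members rose and 4 fell in new RNA (beside 6.75% and 4.86% of all genes), 4 and 3 in whole RNA (4.09% and 2.94%), and 2 and 3 in pre-existing RNA (2.26% and 1.49%). Without the 6 h or the 8 h culture 1 member fell in new RNA, beside 1.16% and 1.51% of all genes. Without the 4 h or the 8 h culture none fell in whole RNA, beside 0.110% and 0.0790% of all genes.

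The members moved in both directions. Their median log2 fold change in new RNA was -0.0042, against 0.0102 over all genes tested, and 15 members had a positive and 15 a negative fold change. In whole RNA the medians were 0.0192 for the members and 0.0040 for all genes. In new RNA 11 members had all 5 treated cultures above the 0 h culture and 11 had all of them below it, beside 24.9% and 24.1% of all genes. The corresponding whole RNA counts were 10 and 6 members, beside 22.7% and 22.4% of all genes. In pre-existing RNA they were 8 and 7, beside 20.3% and 20.8%. The values that follow are CPM of the RNA kind named, scaled by TMM factors, and fold changes are log2 values of treated over 0 h cultures.

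**Figure D2:**
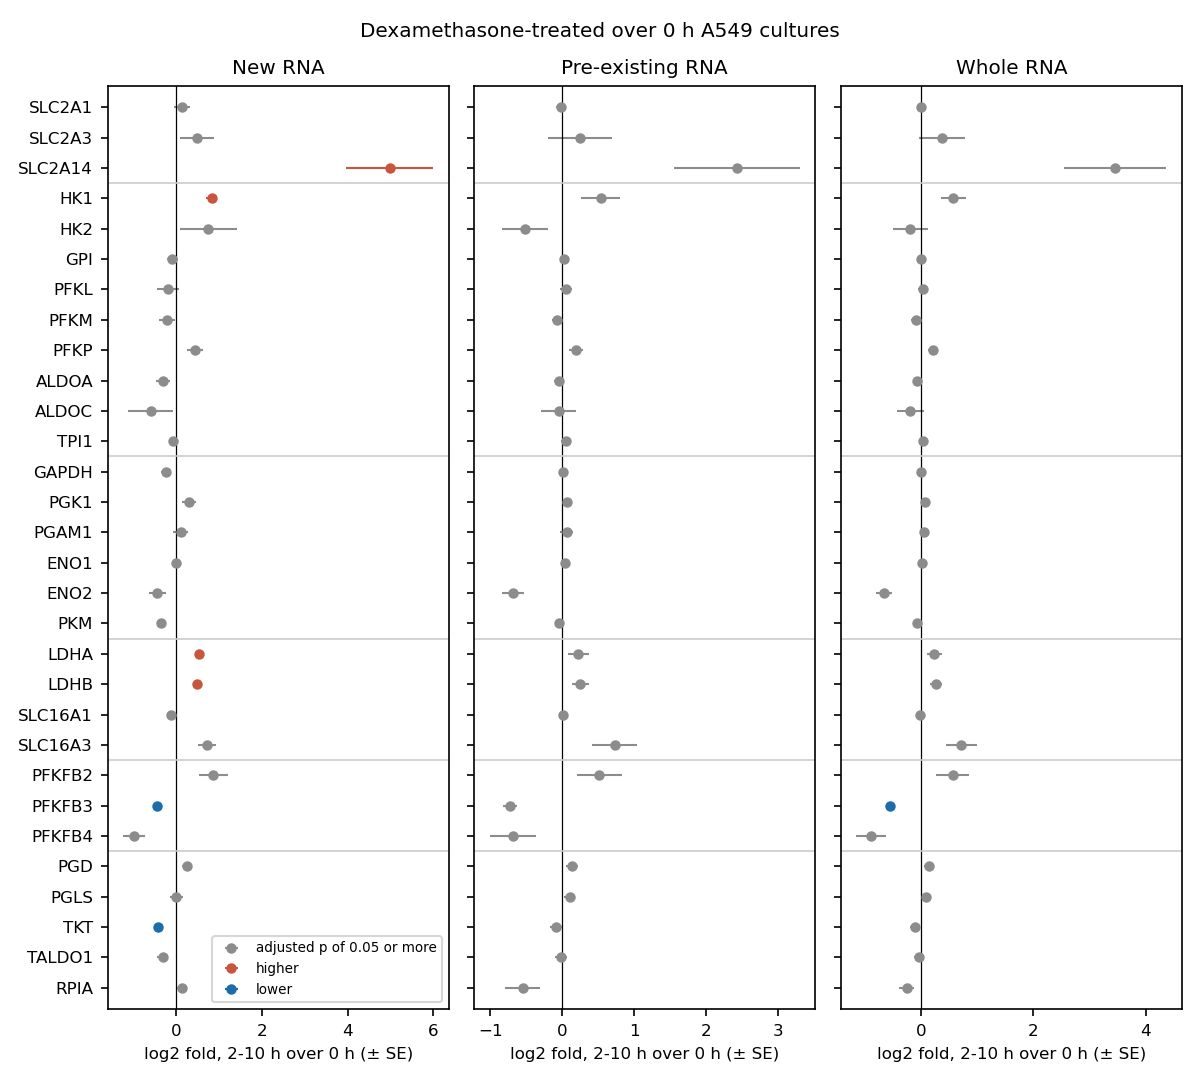
Log2 fold change of the 5 treated A549 cultures over the 0 h culture for each member in new, pre-existing and whole RNA, with standard errors from edgeR. SLC2A14 at 4.98 in new RNA lies far outside the others, and the panels have their own horizontal ranges.

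Slopes over the 5 treated times were tested apart from the 0 h culture. In whole RNA 7 members rose with time and 3 fell, beside 6.10% and 6.53% of 21493 genes. In new RNA 4 of the 28 members tested rose and 1 fell, beside 3.55% and 4.15% of 16366 genes, and HK2 and ALDOC were too low to be tested. The members' median slope was 0.0011 log2 units per hour in whole RNA and 0.0017 in new RNA, beside 0.0002 and 0.0006 over all genes. Without the 2 h culture 4 members rose and 1 fell in whole RNA, beside 3.68% and 3.77% of all genes. In new RNA GPI and ALDOA then rose and SLC2A1 fell, beside 3.07% and 3.86%, and of these ALDOA alone was called with all cultures. Without the 8 h culture 1 fell in whole RNA, beside 3.26% of all genes, and in new RNA 1 rose and none fell, beside 1.39% and 1.73%. In new RNA 2 members fell without the 4 h culture, beside 3.89% of all genes, and none without the 10 h culture, beside 1.91%.

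Among the transporters, SLC2A14 had by far the largest fold change of the members. Its new RNA stood at 1.66 CPM at 0 h and at 15.6, 44.8, 68.5, 64.1 and 68.3 CPM at 2, 4, 6, 8 and 10 h. Every treated culture lay above the 0 h culture, and the level climbed up to 6 h and was flat after it. New RNA rose by a log2 fold change of 4.98 ± 1.02 (SE, adjusted p = 0.02). The raw counts behind this were 2082 new counts in the treated cultures together and 12 at 0 h, a ratio of 31.2 after division by the total counts (exact 95% interval 17.8 to 60.4, counting error only).

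SLC2A14 pre-existing RNA followed at 1.64, 2.70, 5.89, 11.3, 11.98 and 12.2 CPM at 0, 2, 4, 6, 8 and 10 h. Its fold change of 2.43 did not pass the test (adjusted p = 0.623, and 0.0196 without the 2 h culture), nor did the 3.45 of whole RNA (adjusted p = 0.17), for which the treated cultures spread between 5.29 and 23.9 CPM. Whole RNA was called without the 2 h culture (adjusted p = 9.23e-04), and by DESeq2 (adjusted p = 0.0059). The slope over treated times was 0.20 ± 0.05 log2 units per hour in new RNA (adjusted p = 0.0287). In whole RNA it was 0.23 (adjusted p = 0.0253). Both slopes missed the threshold without the 2 h culture (adjusted p = 0.0943 and 0.0878) and without the 8 h culture (0.104 and 0.0762), and the whole RNA slope also without the 4 h culture (0.059). DESeq2 did not call the new RNA slope (adjusted p = 0.118). The new share of SLC2A14 counts was 59.3 to 66.0% in the treated cultures, against 21.4% on 56 counts at 0 h.

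SLC2A3 new RNA had 54.9, 39.7, 64.9, 88.3, 104 and 84.4 CPM at 0, 2, 4, 6, 8 and 10 h. The 2 h culture lay below the 0 h culture and the other 4 treated cultures above it, so the groups overlapped, and the treated fold change of 0.48 did not pass (adjusted p = 0.596). Among treated cultures it rose by 0.14 ± 0.03 log2 units per hour (adjusted p = 0.0244), a call lost without the 2 h culture (adjusted p = 0.211), without the 8 h culture (0.106) and by DESeq2 (0.0882). Whole RNA rose by 0.14 per hour (adjusted p = 0.0157), which was lost without the 2 h culture (0.116) and without the 4 h culture (0.061). When the reads of both copies were summed as 1 gene, the treated fold change in new RNA was 1.19 (adjusted p = 0.236) and the slope stayed called at 0.17 per hour (adjusted p = 0.0175).

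SLC2A1 new RNA had 108, 101, 152, 121, 104 and 115 CPM at 0, 2, 4, 6, 8 and 10 h. It was highest at 4 h, the groups overlapped and the fold change of 0.14 did not pass (adjusted p = 0.785). Its pre-existing RNA lay between 111 and 120 CPM in the treated cultures, against 116 CPM at 0 h.

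**Figure D3:**
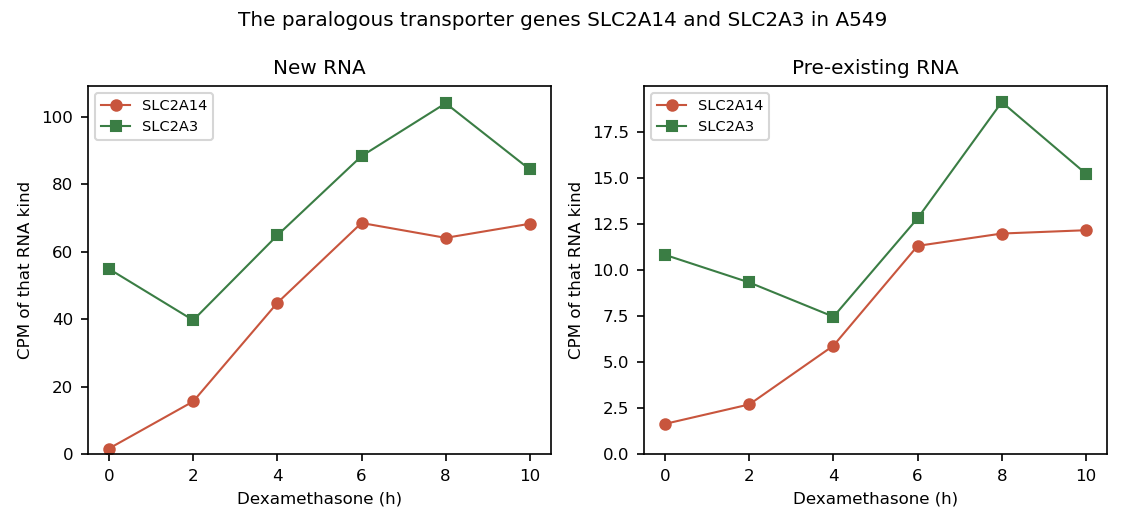
New and pre-existing RNA (CPM of that kind) of SLC2A14 and SLC2A3 by hours of dexamethasone in A549, 1 culture per time. SLC2A14 new RNA is 68.3 CPM at 10 h, against 1.66 CPM at 0 h, whereas SLC2A3 dips to 39.7 CPM at 2 h before its highest value at 8 h.

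In the preparatory phase, HK1, the hexokinase isoenzyme of most tissues, rose in new RNA. Its new RNA had 40.8, 65.9, 77.0, 76.4, 69.8 and 72.2 CPM at 0, 2, 4, 6, 8 and 10 h, with every treated culture above the 0 h culture. The mean was 72.3 ± 4.66 CPM in the treated cultures (SD, 5 cultures) and 40.8 CPM in the 0 h culture, a log2 fold change of 0.82 ± 0.13 (SE, adjusted p = 0.00472). Leaving out any treated culture kept this call. Pre-existing HK1 RNA had 57.9, 58.1, 74.1, 85.9, 98.9 and 100 CPM in the same order, level with 0 h at 2 h and higher at every later time. Its treated fold change of 0.53 did not pass (adjusted p = 0.644, edgeR), nor did the 0.58 of whole RNA (adjusted p = 0.349). With a linear time term both were called (adjusted p = 0.0126 and 0.00188). Whole RNA rose over the treated times by 0.08 ± 0.01 log2 units per hour (adjusted p = 0.00196), again under every leave-one-out fit.

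PFKP, the platelet-type phosphofructokinase, had its highest new RNA at 2 h, with 214, 378, 275, 265, 273 and 263 CPM at 0, 2, 4, 6, 8 and 10 h. All treated cultures lay above the 0 h culture, but the fold change of 0.44 did not pass (adjusted p = 0.257) and was called without the 2 h culture (0.33, adjusted p = 0.0238). ALDOA new RNA had 208, 145, 152, 160, 180 and 202 CPM in the same order. It was lowest at 2 h and near the 0 h value at 10 h, so its treated fold change of -0.31 did not pass (adjusted p = 0.351), whereas it rose among treated cultures by 0.06 ± 0.01 log2 units per hour (adjusted p = 0.00695, and 0.14 without the 10 h culture). Pre-existing ALDOA RNA lay between 1286 and 1379 CPM in the treated cultures, against 1381 CPM at 0 h.

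Of the remaining preparatory enzymes none passed these tests with all cultures. TPI1 new RNA had 160, 153, 157, 147, 152 and 154 CPM at 0, 2, 4, 6, 8 and 10 h, with the treated cultures all slightly below the 0 h culture. GPI, the glucose 6-phosphate isomerase, had 198 to 244 CPM of new RNA in treated cultures, against 234 CPM at 0 h. PFKL and PFKM, the liver and muscle phosphofructokinases, had new RNA of 6.47 to 9.33 and 11.2 to 14.9 CPM in treated cultures, against 8.69 and 14.8 CPM at 0 h. HK2 and ALDOC, the brain-type aldolase, had only 125 and 205 whole counts over all 6 cultures, so small changes in them could not be detected at this depth.

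The PFKFB enzymes split. PFKFB3 new RNA had 518, 371, 388, 381, 380 and 368 CPM at 0, 2, 4, 6, 8 and 10 h. Every treated culture was below the 0 h culture and the 5 lay close together, with a mean of 378 ± 8.26 CPM (SD) in treated cultures and 518 CPM at 0 h. The fold change was -0.45 ± 0.08 in new RNA (SE, adjusted p = 0.0105), and that of whole RNA was -0.54 ± 0.07 (adjusted p = 0.0143). The whole RNA call narrowly missed the threshold without the 4 h culture (adjusted p = 0.051) and without the 8 h culture (0.0519), while the new RNA call was kept in each leave-one-out fit. Pre-existing PFKFB3 RNA had 59.5, 39.7, 35.0, 36.6, 35.3 and 32.9 CPM in the same order and its fold change of -0.73 did not pass (adjusted p = 0.0784), although DESeq2 called it (5.78e-05).

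PFKFB4 new RNA had 34.3, 23.8, 18.1, 17.4, 14.7 and 12.8 CPM at 0, 2, 4, 6, 8 and 10 h, lower at each later time. The treated fold change of -0.99 ± 0.25 just missed the threshold (adjusted p = 0.0518) and passed by DESeq2 (0.0109). Over the treated times new RNA fell by 0.11 log2 units per hour (adjusted p = 0.0116). Whole RNA fell by 0.10 per hour (adjusted p = 0.00764). The new RNA slope was lost without the 2 h (adjusted p = 0.116), 8 h (0.0543) or 10 h culture (0.0969), and the whole RNA slope without the 2 h culture (0.126). PFKFB2, the isoenzyme known from heart muscle, went the other way. Its whole RNA had 7.35, 7.42, 9.75, 10.7, 13.0 and 13.4 CPM in time order and rose among treated cultures by 0.11 ± 0.02 log2 units per hour (adjusted p = 0.00375), under every leave-one-out fit. PFKFB2 new RNA had 4.83, 5.43, 9.24, 9.59, 9.74 and 9.94 CPM, and its treated fold change of 0.87 did not pass (adjusted p = 0.213) but was called without the 2 h culture (1.00, adjusted p = 0.0156).

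**Figure D4:**
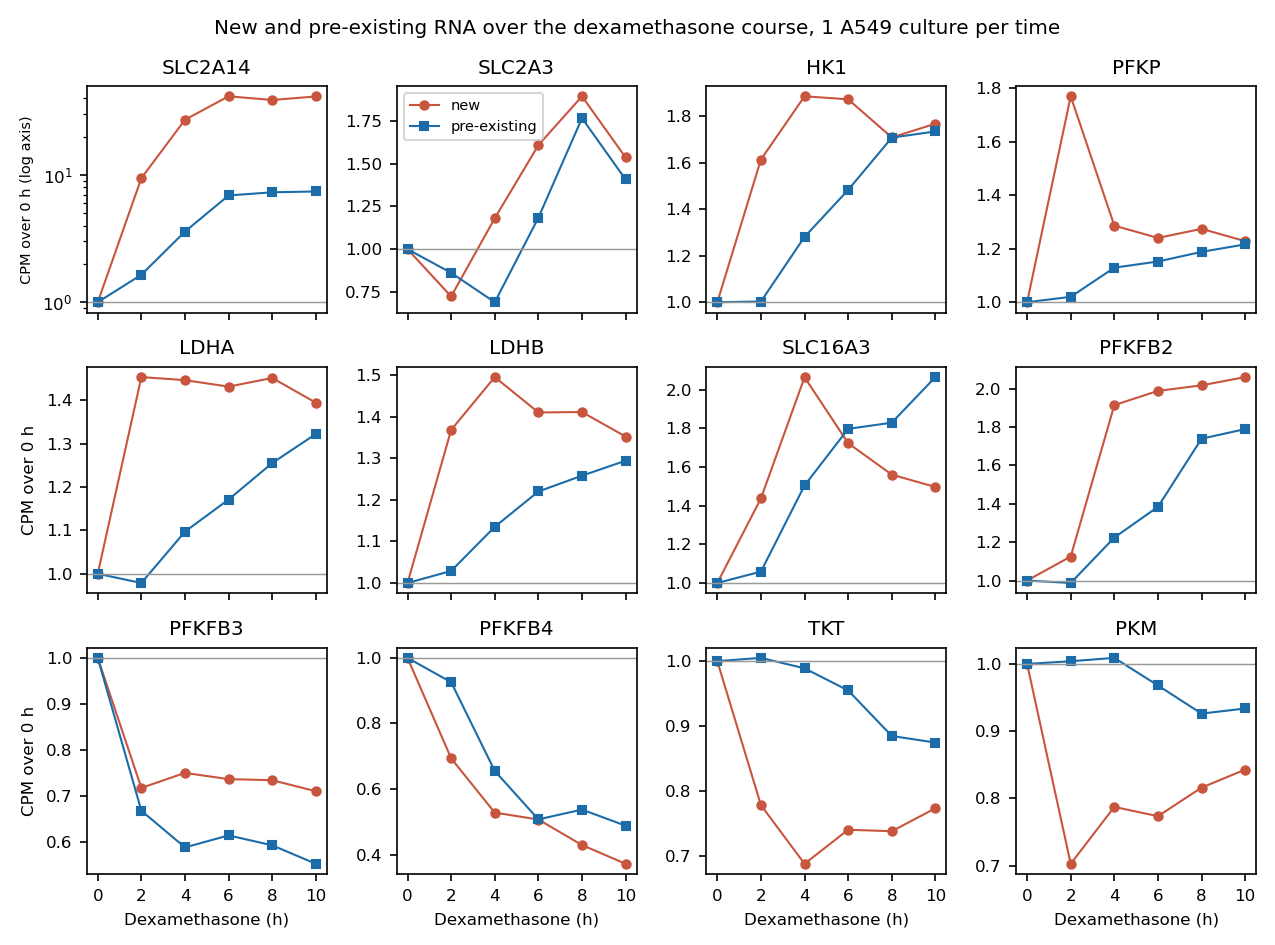
New and pre-existing RNA of 12 members by hours of dexamethasone in A549, as CPM over the 0 h culture, with 1 culture per time. HK1 and LDHA gain new RNA by 2 h and pre-existing RNA later, and PFKFB3 is lower in both kinds by 2 h. At 2 h the label spans the whole exposure, so pre-existing RNA there, apart from new molecules not called, was made before the drug.

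In the payoff phase PGK1 alone passed a test. PGK1, the first ATP-forming enzyme of glycolysis, had new RNA of 116, 118, 129, 145, 160 and 155 CPM at 0, 2, 4, 6, 8 and 10 h. All treated cultures were above the 0 h culture, the earliest by little, and the treated fold change of 0.29 did not pass (adjusted p = 0.393). Among treated cultures it rose by 0.05 ± 0.01 log2 units per hour (adjusted p = 0.019), a call lost without the 2 h (0.0835) or the 8 h culture (0.102).

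PKM new RNA had 525, 369, 413, 406, 428 and 442 CPM in time order, with all treated cultures below the 0 h culture. Its fold change of -0.35 ± 0.10 did not pass (adjusted p = 0.0901) but was called without the 2 h culture (adjusted p = 0.0249). GAPDH new RNA was 785 to 923 CPM in treated cultures, against 1031 CPM at 0 h (fold change -0.24, adjusted p = 0.235). Both genes had pre-existing levels near the control, at 5980 to 6399 CPM in treated cultures and 6115 CPM at 0 h for GAPDH, and at 2148 to 2340 CPM and 2319 CPM for PKM. ENO1 new RNA was 644 to 700 CPM in treated cultures and 666 CPM at 0 h, and PGAM1 new RNA was 16.8 to 22.3 CPM and 18.1 CPM.

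ENO2, the enolase of neurons and of many tumour lines, had whole RNA of 19.2, 14.5, 12.8, 11.3, 11.3 and 11.3 CPM at 0, 2, 4, 6, 8 and 10 h. Every treated culture was below the 0 h culture, but the fold change of -0.65 ± 0.15 did not pass (adjusted p = 0.118), while it was called without the 2 h culture (0.00608) and by DESeq2 (0.0121).

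Both subunits of lactate dehydrogenase rose in new RNA. LDHA, the subunit that favours lactate formation, had new RNA of 337, 489, 487, 482, 488 and 469 CPM at 0, 2, 4, 6, 8 and 10 h. LDHB, the heart-type subunit, had 415, 568, 621, 586, 586 and 561 CPM in the same order. For both, the 5 treated cultures lay close together and all above the 0 h culture.

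LDHA new RNA averaged 483 ± 8.27 CPM in treated cultures (SD, 5 cultures) and 337 CPM at 0 h, a log2 fold change of 0.52 ± 0.09 (SE, adjusted p = 0.00716). LDHB new RNA averaged 584 ± 23.1 CPM in treated cultures and 415 CPM at 0 h, a fold change of 0.49 ± 0.09 (adjusted p = 0.0133). Both calls were kept on leaving out any treated culture. Pre-existing LDHA had 1387, 1357, 1522, 1624, 1740 and 1833 CPM at 0, 2, 4, 6, 8 and 10 h, and pre-existing LDHB 1304, 1342, 1480, 1590, 1640 and 1686 CPM. Pre-existing levels at 2 h were thus near those at 0 h and were higher at each later time. Against 0 h, pre-existing RNA did not pass (adjusted p = 0.687 for LDHA and 0.634 for LDHB, edgeR). Nor did whole RNA, with fold changes of 0.24 (adjusted p = 0.503) and 0.27 (0.35). With a linear time term both genes were called in whole RNA (0.00536 and 0.00362) and in pre-existing RNA (0.0101 and 0.00994). Whole RNA rose over the treated times by 0.05 ± 0.01 log2 units per hour for LDHA (adjusted p = 0.00132) and by 0.03 ± 0.01 for LDHB (adjusted p = 0.00712), the LDHB slope being lost without the 2 h culture (0.126).

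SLC16A3, the lactate exporter MCT4, had whole RNA of 37.1, 40.9, 58.5, 65.4, 66.6 and 74.9 CPM at 0, 2, 4, 6, 8 and 10 h. It rose over the treated times by 0.09 ± 0.02 log2 units per hour (adjusted p = 0.00536), under every leave-one-out fit. New SLC16A3 RNA had 17.2, 24.8, 35.6, 29.7, 26.9 and 25.8 CPM, above the 0 h culture in all treated cultures, and its fold change of 0.72 ± 0.21 did not pass (adjusted p = 0.0862, and 0.028 without the 2 h culture). SLC16A1 differed little, with new RNA of 88.1 to 99.6 CPM in treated cultures and 101 CPM at 0 h (adjusted p = 0.635).

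In the pentose phosphate pathway 1 member passed the test of treated cultures against 0 h. TKT, which shuttles carbon between the pathway and glycolysis, had new RNA of 284, 221, 195, 210, 210 and 220 CPM at 0, 2, 4, 6, 8 and 10 h. All treated cultures were below the 0 h culture, and the fold change of -0.43 ± 0.09 passed (adjusted p = 0.0277), but not without the 6 h culture (0.0819) or the 8 h culture (0.071). Pre-existing TKT RNA was 1124, 1130, 1111, 1073, 994 and 982 CPM in time order, so it was near the 0 h level at 2 h and 4 h and lower from 6 h. Whole TKT RNA fell over the treated times by 0.03 log2 units per hour (adjusted p = 0.0146), a call lost without the 2 h (0.0793) or the 8 h culture (0.067).

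TALDO1 new RNA had 77.9, 70.3, 59.4, 58.2, 59.6 and 65.8 CPM at 0, 2, 4, 6, 8 and 10 h, all treated cultures being below the 0 h culture (fold change -0.31, adjusted p = 0.209). Its whole RNA fell over the treated times by 0.03 log2 units per hour (adjusted p = 0.0404), which was called without the 2 h culture but not without the 4 h (0.0826), 6 h (0.0549), 8 h (0.127) or 10 h culture (0.209). PGD, the NADPH-forming 6-phosphogluconate dehydrogenase, had new RNA of 267 to 321 CPM in treated cultures and 248 CPM at 0 h (fold change 0.24, adjusted p = 0.289). PGLS, the lactonase between the oxidative steps, had 17.3 to 19.4 CPM in treated cultures and 18.6 CPM at 0 h.

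RPIA showed its 2 kinds of RNA apart. Its new RNA had 40.5, 47.1, 42.1, 43.9, 45.3 and 45.3 CPM at 0, 2, 4, 6, 8 and 10 h, while its pre-existing RNA had 17.4, 16.1, 12.2, 10.1, 10.1 and 11.0 CPM. The new share was 42.4 to 55.5% in treated cultures, against 38.6% at 0 h. Neither kind passed on its own (adjusted p = 0.585 in new RNA and 0.623 in pre-existing RNA), although pre-existing RNA was called as lower without the 2 h culture (-0.68, adjusted p = 0.0335).

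Whether dexamethasone shifted new RNA more than pre-existing RNA was tested with a term for each culture. No member passed and 0.00% of 22440 genes did, in either direction, by edgeR. At an unadjusted p under 0.05 there were 6 members and 1216 genes. DESeq2 called 8 genes as shifted towards new RNA and 5 the other way, and SLC2A14 was the only member among them (adjusted p = 0.00357). SLC2A14 was also called by edgeR without the 2 h culture (adjusted p = 0.0313). In edgeR the SLC2A14 difference was 2.59 ± 0.40 log2 units (adjusted p = 0.115), and that of RPIA was 0.73 ± 0.22 (adjusted p = 0.749). The order in time seen in HK1, LDHA and LDHB, with new RNA higher at 2 h and pre-existing RNA later, is therefore a description of the cultures' values. S4U covered the last 2 h, so in the 2 h culture labelling spanned the whole dexamethasone exposure. Pre-existing RNA there was made before the drug, apart from new molecules that were not called. At later times it also holds RNA made under dexamethasone before labelling. For a gene whose synthesis rises early, the labelling design would by itself give this order. Whether that holds for HK1, LDHA and LDHB was not tested.

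The other genes of glucose use, a list of 86 genes with no member in it among the annotated symbols, were put to the same tests. In new RNA 67 of them could be tested, of which 3 rose and 1 fell, beside the 3.82% and 2.18% of all genes. PDK4, the kinase that shuts off pyruvate dehydrogenase, rose by a log2 fold change of 2.70 ± 0.15 (SE, adjusted p = 1.99e-05). PYGB, the brain-type glycogen phosphorylase, rose by 2.46 ± 0.18 (adjusted p = 1.03e-04), and PC, pyruvate carboxylase, by 0.81 ± 0.15 (adjusted p = 0.012). HKDC1, a hexokinase domain protein, fell by 1.20 on the log2 scale (adjusted p = 0.00295). In whole RNA only PDK4 passed among 76 genes tested (2.67, adjusted p = 0.0016), and in pre-existing RNA none of 73 did, with 5 at an unadjusted p under 0.05.

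Over the treated times 12 of 73 other genes of glucose use rose and 6 fell in whole RNA, beside 6.10% and 6.53% of all genes. PYGB had the steepest rise among them at 0.18 log2 units per hour (adjusted p = 2.53e-04) and HKDC1 the steepest fall at -0.14 (adjusted p = 1.93e-04). HIF1A, the oxygen-regulated activator of many glycolytic genes, rose by 0.05 per hour in whole RNA (adjusted p = 0.00435), and its new RNA also rose (adjusted p = 0.012).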

How the data were processed

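The values are raw counts, deposited per gene in each cell, for whole RNA and for RNA that the authors called newly synthesised. Per the submitters' processing notes, the tools were STAR 2.5.2b, Picard 1.105, Trim Galore 0.4.1 and SAMtools 1.3, with the builds hg19 and mm10. The calling of new molecules, the collapsing of duplicates and any doublet removal are not described in those sources. New counts never exceeded whole counts, so whole minus new counts were taken as pre-existing RNA, which includes new molecules that were not called. The deposited fraction of reads with base changes per cell and the authors' doublet score per cell were not used for any result. Cells were grouped by the deposited dexamethasone time, labelling group and species call, and the samples shared 0 cell names.

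Counts were summed over cells and tested with edgeR 4.0.16 in R 4.3.3 (TMM, filterByExpr with a minimum count of 10, quasi-likelihood test, Benjamini-Hochberg, threshold 0.05), with 4 residual degrees of freedom for treated against 0 h and for new against pre-existing RNA, and 3 for slopes. The 0 h culture, being alone, is taken to vary as the treated cultures do, whose spread includes change over time, and p-values measure only the spread between these cultures. The quasi-likelihood fit also draws each gene's spread towards that of all genes, which adds to the residual degrees of freedom given here. The comparison of new with pre-existing RNA paired both kinds within a culture, because they come from the same cells. Each standard error is the fitted log2 fold divided by the root of F. Shares and count ratios carry exact Clopper-Pearson 95% intervals. Sequences were read with Biopython 1.88 from GENCODE 29. Alternatives were DESeq2 1.42.0, RLE factors, no low-count filter, leaving out each treated culture, a linear time term, and the summed transporter copies.

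Values in every culture are given for members that passed a test, for the glucose transporters, and for the highest and lowest new shares. The other genes named are at most 5 per list by smallest adjusted p in new RNA, and HIF1A and the other values outside this rule were chosen after they were seen. The members and gene lists were chosen with earlier results of these data known. One gene that this rule names is not reported here. Promoter motifs were not analysed here.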

Additional observations from a re-analysis of the deposited data

Results flagged for a closer look

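In 7 of 90 groups of 5 treated A549 cultures, formed by gene and kind of RNA, a single culture stood far from the others, with a gap to its nearest neighbour, as a share of the range, above Dixon's 95% critical value. Chance gives such a gap in about 1 in 20 groups. PFKP new RNA was 378.3 CPM at 2 h, with the next treated culture at 275 CPM, against 213.9 CPM at 0 h. PFKFB2 new RNA was 5.432 CPM at 2 h, the lowest treated value, with the next at 9.239 CPM, against 4.827 CPM at 0 h. RPIA whole RNA was 22.32 CPM at 2 h, with the next at 18.35 CPM, against 22.36 CPM at 0 h.

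PFKM was lowest at 6 h, with 26.76 CPM of whole RNA (next 29.21) and 31.54 CPM of pre-existing RNA (next 33.43), against 30.65 and 34.93 CPM at 0 h. ENO1 new RNA was highest at 10 h, with 700.2 CPM and the next at 659.9, against 665.7 CPM at 0 h. HK2 pre-existing RNA was highest at 4 h, at 0.6109 CPM with the next at 0.4501, against 0.6717 CPM at 0 h, values that rest on few counts.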

How the results depend on the processing

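No called fold or slope of a member took the opposite sign. Uncalled values near 0 did so for 4 folds of treated over 0 h, 23 slopes and 2 differences between new and pre-existing RNA, none with an adjusted p under 0.526. Leaving out each treated culture gave 0 to 4 members higher and 0 to 3 lower in whole RNA, beside 0.251 to 4.09% and 0.0790 to 2.94% of all genes. It gave 4 to 7 and 1 to 4 in new RNA, beside 2.47 to 6.75% and 1.16 to 4.86%, and 0 to 2 and 0 to 3 in pre-existing RNA, beside 0.00 to 2.26% and 0.0242 to 1.49%. Rising slopes were 4 to 7 and falling ones 1 to 2 in whole RNA, beside 3.31 to 6.01% and 3.26 to 6.19%, and 1 to 4 and 0 to 2 in new RNA, beside 1.39 to 3.35% and 1.73 to 3.90%. Members shifted towards new RNA were 0 to 1, beside 0.00 to 0.0993%. Among these fits the highest counts for treated against 0 h came without the 2 h culture.

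DESeq2 gave 1 higher (SLC2A14) and 3 lower in whole RNA (with ENO2 and PFKFB4), beside 2.43% and 1.00% of all genes, and 2 lower in pre-existing RNA, beside 0.228%. It gave 2 rising slopes in new RNA (ALDOA and PGK1), beside 2.52%, and 1 member shifted towards new RNA, beside 0.0357%. Without the low-count filter 1 member was higher in whole RNA, beside 0.700%, and 1 lower in pre-existing RNA, beside 0.0580%. Falling slopes in new RNA were then 2 (with PFKP), beside 2.5%, and 2 members were shifted towards new RNA (SLC2A14 and RPIA), beside 0.297%. A linear time term gave 7 higher and 3 lower in whole RNA, beside 5.85% and 4.84%, 6 and 2 in pre-existing RNA, beside 3.58% and 2.36%, and 5 lower in new RNA, beside 5.85%. It lowers the residual degrees of freedom to 3.

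The median new share of the members fell to 6.38% in A549 as a median over cells and 8.335% with the iodoacetamide-only share of HEK293T cells subtracted, against 9.39%, and in HEK293T to 14.3% over cells, against 15.8%. The medians over cells used cells with at least 5 counts of the gene. In A549 they left out ENO2, PFKFB2 and RPIA, which had fewer than 20 such cells and pooled shares above 9.39%. Without the replicate block, which pairs both kinds of RNA of a culture, 0 members passed in either direction, as with it. Every scaling moved the median of all genes by under 0.1 log2 units. The limits are 1 culture per time, 1 control culture and few counts for HK2, ALDOC and several HEK293T genes. The causes of these changes were not tested.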

Other observations

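A list of 21 known targets of the hypoxia-inducible factors outside glucose use was described beside the glycolytic genes, many of which respond to the same factors. In new RNA 6 of the 21 rose with dexamethasone and none fell, beside 3.82% and 2.18% of all genes, and the list's median log2 fold change was 0.13, beside 0.01 over all genes. Those named here, by adjusted p (edgeR), were ANGPTL4, an inhibitor of lipoprotein lipase (3.70 ± 0.26 SE, adjusted p = 7.65e-05), NDRG1 (1.77 ± 0.17, adjusted p = 4.64e-04), DDIT4, an inhibitor of mTORC1 signalling (1.38 ± 0.19, adjusted p = 0.00309) and P4HA2, a collagen prolyl hydroxylase subunit (0.85 ± 0.19, adjusted p = 0.0322). ANGPTL4 and DDIT4 are also known as glucocorticoid-responsive genes. In whole RNA ANGPTL4 and DDIT4 passed, by 3.58 (adjusted p = 0.022) and 1.35 (adjusted p = 0.0372). In pre-existing RNA 0 of the 21 passed, beside 0.0533% higher and 0.0630% lower of all genes. Over the treated times 4 of the 21 rose and 2 fell in new RNA, beside 3.55% and 4.15% of all genes. The activity of the hypoxia-inducible factors was not tested.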
